A study of Mus musculus with 3 samples.

Results

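A set of 10 genes from the IFITM family of interferon-induced membrane proteins and the Ly6 family of surface antigens was followed across the leukocytes of mouse melanoma grafts: Ifitm1, Ifitm2, Ifitm3 and Ifitm6, and Ly6a, Ly6c1, Ly6c2, Ly6e, Ly6i and Ly6a2. They were chosen by symbol, 10 of the 55401 genes listed, and each had counts in all 3 libraries. The choice was made with earlier results of these data in view, among them the level of Ifitm1 in CD8 T cells by age, so all levels and ratios are descriptions and none was tested. Mice aged 4, 12 or 20 months, 7 per age, had received a graft of 500000 YUMM1.7 cells, a murine melanoma line, under the skin. Tumours were taken after 18 days, and live cells (DAPI-negative) bound by an antibody to CD45.2, the leukocyte surface phosphatase, were sorted for PIP-seq, a droplet-type 3′ single-cell assay. The 3 groups carry the same graft and differ, as far as the labels go, in age. The labels give no genotype, strain or sex of the mice and do not say whether the 7 tumours of an age were pooled. Each age is 1 library, so age cannot be told apart from library, and no spread between mice could be measured.

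IFITM proteins are small membrane proteins that are induced by interferons and hinder the entry of enveloped viruses at the cell surface and in endosomes. Ly6 proteins are small, lipid-anchored surface proteins, and several serve as everyday markers in immunology: Ly6a is Sca-1, a marker of stem cells and activated T cells, and the Ly6C antigen encoded by Ly6c1 and Ly6c2 marks inflammatory monocytes and memory CD8 T cells. Members of both families are known targets of interferon signalling, in which STAT-containing complexes bind 2 types of DNA element, the interferon-stimulated response element (ISRE) and the gamma-activated site (GAS).

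The Ifitm genes lie together on chromosome 7 and the Ly6 genes on chromosome 15 (mouse build GRCm38, positions from GENCODE M21). Ifitm2 is at chr7:140954837-140955987 on the minus strand, Ifitm1 at chr7:140967221-140969825 on the plus strand, Ifitm3 at chr7:141009586-141010770 and Ifitm6 at chr7:141015699-141017924, both on the minus strand. In order along chromosome 15 stand Ly6e (chr15:74955051-74959905, plus strand), Ly6i (chr15:74979534-74983430), Ly6a (chr15:74994877-74998031), Ly6c1 (chr15:75044018-75048830), Ly6c2 (chr15:75108158-75111970) and Ly6a2 (chr15:75131377-75135128), the last 5 on the minus strand. Ly6a2 is annotated as a transcribed pseudogene, so its counts measure RNA and no known protein.

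The start-site windows of these genes differ in their interferon-response letters, and 5 of them are printed here because the paired genes behave differently below. The motifs searched on both strands were GAAA, 2 bases of any kind and GAAA for the ISRE, and TTCNNNGAA for the GAS, in windows from 250 bases before to 50 after the RefSeq start (GRCm38.p6). Of 32851 such windows, 3.44% held the ISRE letters and 8.3% the GAS letters. Windows were present for 7 of the 10 genes. Capitals mark the matched letters, each sequence runs 5′ to 3′ on the gene's strand, and the printed stretch ends 30 bases after the start. The windows are chr7:141010715-141010994 for Ifitm3, chr7:140955932-140956211 for Ifitm2, chr7:140967826-140968105 for Ifitm1, chr15:75111942-75112221 for Ly6c2 and chr15:75135099-75135378 for Ly6a2.
Ifitm3: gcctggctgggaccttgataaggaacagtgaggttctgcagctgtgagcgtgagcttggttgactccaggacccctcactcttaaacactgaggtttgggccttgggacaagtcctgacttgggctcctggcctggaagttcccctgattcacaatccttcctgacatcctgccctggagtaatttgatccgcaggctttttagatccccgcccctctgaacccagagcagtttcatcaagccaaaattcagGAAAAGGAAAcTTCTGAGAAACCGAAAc
Ifitm2: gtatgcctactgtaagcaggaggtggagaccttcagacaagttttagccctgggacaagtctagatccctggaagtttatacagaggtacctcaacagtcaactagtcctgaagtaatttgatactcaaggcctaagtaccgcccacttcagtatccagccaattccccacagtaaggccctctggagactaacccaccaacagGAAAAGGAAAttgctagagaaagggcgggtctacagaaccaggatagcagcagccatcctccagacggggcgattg
Ifitm1: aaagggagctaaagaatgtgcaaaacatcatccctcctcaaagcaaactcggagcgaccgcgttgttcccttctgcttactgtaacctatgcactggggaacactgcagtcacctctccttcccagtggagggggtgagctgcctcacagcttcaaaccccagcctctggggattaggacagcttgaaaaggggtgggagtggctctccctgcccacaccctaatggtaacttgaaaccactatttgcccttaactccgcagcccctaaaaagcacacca
Ly6c2: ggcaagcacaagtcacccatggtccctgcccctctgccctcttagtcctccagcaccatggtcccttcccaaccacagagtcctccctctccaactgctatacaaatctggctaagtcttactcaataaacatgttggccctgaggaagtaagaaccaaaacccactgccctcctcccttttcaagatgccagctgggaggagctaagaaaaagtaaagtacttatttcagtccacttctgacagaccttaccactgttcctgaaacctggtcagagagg
Ly6a2: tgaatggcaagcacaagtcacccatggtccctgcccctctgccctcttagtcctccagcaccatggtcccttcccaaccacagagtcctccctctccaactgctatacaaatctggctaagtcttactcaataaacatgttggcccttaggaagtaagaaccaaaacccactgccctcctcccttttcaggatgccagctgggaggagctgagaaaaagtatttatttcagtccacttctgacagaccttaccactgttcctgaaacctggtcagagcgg
In Ifitm3, 2 ISRE matches (GAAAAGGAAA and GAAACCGAAA) began 2 and 19 bases after the annotated start, and a GAS match (TTCTGAGAA) began 13 bases after it, overlapping the second of them. Ifitm2 held 1 ISRE match (GAAAAGGAAA), 46 bases before its start. The Ifitm6 window, not printed, held 1 GAS match (TTCCTTGAA) 10 bases before its start. No match lay in the windows of Ifitm1, Ly6c1, Ly6c2 or Ly6a2, which says only that these letters are not there. The 300-base windows of Ly6c2 and Ly6a2 were 96.7% identical, 290 of 300 bases.

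Close relatives set a limit on what a 3′ assay can assign. Over the last 500 bases of the transcripts, Ly6c1 and Ly6c2 were 98.2% identical, and 25 of 401 windows of 100 bases (6.23%) were the same in both. For Ifitm2, 89 of 401 such windows (22.2%) also occur in Gm45717, Gm8865 or Gm11951, and Gm45717 overlaps Ifitm2 on the same strand, so the values of Ifitm2, Ly6c1 and Ly6c2 are uncertain to that extent. No such window was shared by the other 7 genes with any other gene, although the other Ly6 pairs without Ly6e were 85.3% to 89.7% identical over that stretch.

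The 3 libraries held 14393, 14653 and 14684 cells and 110371225, 127850782 and 119873564 counts at 4, 12 and 20 months, with a median of 6789, 7411 and 6936 counts per cell, and 13528, 13774 and 13803 cells were kept. Between 5 and 7 cell barcodes per library also occurred in another library. Cells were clustered without the 10 genes, and clusters were called by marker lists. The CD8 T-like class held 2866, 3289 and 2704 cells, the regulatory T-like class 733, 628 and 486, the NK-like class 2295, 2093 and 1607, the monocyte-like class 2411, 1265 and 1411, the macrophage-like class 2817, 2905 and 3681 and the type 2 dendritic-like class 467, 358 and 423. Within the CD8 T-like class, a small cluster led by Dpf3 and Sim1 had 3, 21 and 62 cells. Its median depth was 16865 counts, and its leading genes held no CD8 T marker. A T cluster led by Dapl1 and Gzmm (472, 993 and 1909 cells) was left unnamed and is described beside the CD8 T-like class. Its other leading genes Ccr7, S1pr1, Il7r and Lef1 belong to naive and resting T cells. By marker score it was best matched to CD8 T (0.752, next 0.129). It stayed unnamed because its leading genes held 1 marker of the mature dendritic list, Ccr7, and no CD8 T marker. The CD8 T-like levels and ratios therefore leave these cells out. They also leave out an unnamed T cluster led by Hist1h2ao and Hist1h2ap (327, 674 and 727 cells). That one was best matched to CD8 T as well (0.817, next 0.194). Its leading genes held 4 markers of the neutrophil list and no CD8 T marker. The labels call the cell type melanoma, but melanocyte markers summed to 3.52 to 43.7 CPM (counts per 1000000 counts of the group) in the groups described, where leukocyte classes were read from their own markers. RNA freed from broken cells was present: markers of other lineages stood in the CD8 T-like class at a median of 17.7%, 22.6% and 24.5% of their level in the whole library. A gene at or below that range in a class is read as background.

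All levels below are CPM of the summed counts of a class, with 95% Poisson intervals that cover counting error only, and are compared between classes and ages within 1 gene. Over whole libraries Ly6c2 was among the most abundant transcripts, at 4070, 4287 and 3600 CPM (rank 12, 10 and 16 of all genes by counts) at 4, 12 and 20 months. Ifitm3 stood at 2846, 1962 and 2221 CPM (rank 29, 59 and 50) and Ly6e at 2308, 2275 and 2303 CPM (rank 41, 47 and 48).

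Ifitm3, whose protein restricts influenza virus and is the best studied of its family, was a gene of the myeloid classes in every library. Its level was 6192, 5479 and 5332 CPM in monocyte-like cells at 4, 12 and 20 months. Macrophage-like cells held 4816, 4025 and 4024 CPM, and type 2 dendritic-like cells 5270, 4279 and 3910 CPM. Each of these 3 classes was highest at 4 months. Type 1 dendritic-like cells held less, 2554, 1845 and 1634 CPM. In CD8 T-like cells the level was 712, 582 and 597 CPM, and in NK-like cells 543, 483 and 448 CPM. These lymphocyte values are close to the free-RNA range: in CD8 T-like cells Ifitm3 stood at 25.0%, 29.6% and 26.9% of its library level, where markers of other lineages reached 21.9%, 26.3% and 29.1%. At 20 months the CD8 T-like and NK-like values therefore read as background. The 10 cells with the most Ifitm3 held 2.63%, 5.70% and 13.9% of the CD8 T-like counts at 4, 12 and 20 months. After each cell was thinned to 2000 counts, Ifitm3 was found in 99.9%, 99.8% and 100.0% of monocyte-like cells.

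Ifitm2, an antiviral relative of Ifitm3, followed Ifitm3 across cells. Its level was 344, 394 and 368 CPM in monocyte-like cells and 259, 242 and 269 CPM in macrophage-like cells. Type 2 dendritic-like cells held 409, 371 and 363 CPM. CD8 T-like cells held 77.5, 66.4 and 71.3 CPM, above the free-RNA range at all ages. Over 28 clusters, all 3 libraries together, the levels of Ifitm2 and Ifitm3 correlated with Pearson's r of 0.94 and Spearman's rho of 0.91, as a description, since clusters share libraries and depth.

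Ifitm6, a member of the family found in myeloid cells, marked the monocyte-like class more sharply than Ifitm3 did. Monocyte-like cells held 499, 416 and 471 CPM, and 64.8%, 55.6% and 51.3% of all Ifitm6 counts of the library. Next came type 2 dendritic-like cells at 406, 273 and 384 CPM. Macrophage-like cells held 75.6, 44.8 and 62.2 CPM, so the drop from monocyte-like to macrophage-like cells was far steeper than for Ifitm3. In CD8 T-like, NK-like and regulatory T-like cells Ifitm6 stood at its highest at 4 months, at 18.7 CPM in NK-like and 19.1 CPM in regulatory T-like cells, and its values were within the free-RNA range at each age, and those values read as background. At 2000 counts per cell, Ifitm6 was found in 52.8%, 48.0% and 53.2% of monocyte-like cells, against 4.27%, 2.96% and 3.48% of NK-like cells, whose median depth was 7303, 7820 and 7055 counts against 7175, 7933 and 7281.

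Ifitm1, which in other settings acts mainly at the cell surface, had a pattern unlike its 3 relatives. In type 2 dendritic-like cells it stood at 330 CPM (313 to 348) at 4 months, 350 CPM (332 to 370) at 12 months and 643 CPM (619 to 669) at 20 months. The CD8 T-like values were 320 CPM (312 to 329), 181 CPM (175 to 187) and 137 CPM (131 to 142). At 4 months the intervals of these 2 classes overlapped, and at 20 months they were far apart. Macrophage-like cells held 67.9, 35.1 and 97.6 CPM and monocyte-like cells 33.6, 31.7 and 53.9 CPM. NK-like cells held 26.4, 45.6 and 41.2 CPM, and regulatory T-like cells 21.8, 25.1 and 46.8 CPM. The Dapl1/Gzmm T cluster was low at every age, with 26.2, 25.5 and 24.9 CPM. As a share of all Ifitm1 counts in the library, CD8 T-like cells gave 51.9%, 45.9% and 23.3%, while macrophage-like cells gave 16.4%, 12.0% and 31.7%. Over the 28 clusters Ifitm1 and Ifitm3 had a Pearson's r of 0.36 and a Spearman's rho of 0.46.

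**Figure D1:**
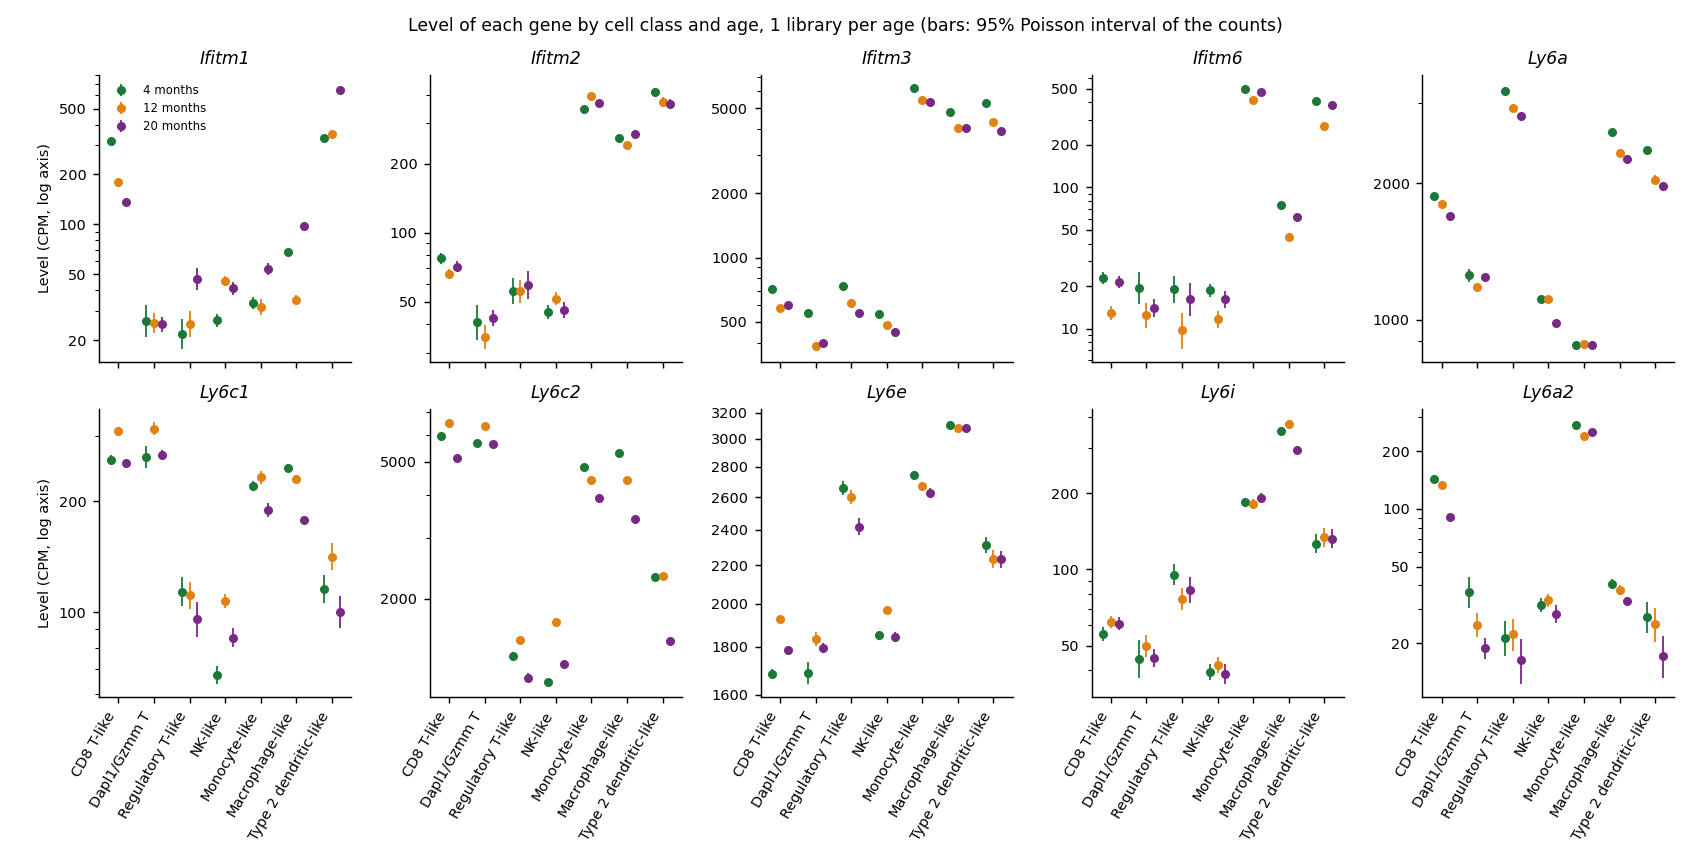
Level of each of the 10 genes (CPM, log axis) in 7 groups of cells at 4, 12 and 20 months; points are the level of 1 library per age and bars the 95% Poisson interval of its counts. Ifitm3 and Ifitm6 are high in monocyte-like and dendritic-like cells, Ifitm1 is high in CD8 T-like and dendritic-like cells, and Ly6c2 is high in CD8 T-like cells, the Dapl1/Gzmm T cluster and the monocyte- and macrophage-like classes.

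Ly6a (Sca-1) was broad, with its top in regulatory T-like cells, the FoxP3-expressing suppressor subset. They held 3190, 2926 and 2812 CPM at 4, 12 and 20 months. Macrophage-like cells held 2590, 2325 and 2261 CPM and CD8 T-like cells 1871, 1798 and 1689 CPM. NK-like cells (1111, 1111 and 982 CPM) and monocyte-like cells (883, 884 and 880 CPM) were lower. Ly6a was found in 99.3%, 98.9% and 97.7% of regulatory T-like cells at 2000 counts per cell, against 66.0%, 68.7% and 67.5% of monocyte-like cells. Mature dendritic-like cells were lowest of the named groups with 402, 402 and 398 CPM, which were within the free-RNA range and read as background.

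Ly6c2, which encodes a Ly6C antigen, was abundant in CD8 T-like cells and 2 unnamed T clusters, in the monocyte-like and macrophage-like classes and in plasmacytoid dendritic-like cells. CD8 T-like cells held 5943, 6488 and 5142 CPM, and the Dapl1/Gzmm T cluster 5682, 6383 and 5624 CPM. An unnamed T cluster led by haemoglobin genes, 99.5% of whose haemoglobin counts sat in 10 cells, held the most, 6717, 7213 and 6182 CPM. Macrophage-like cells held 5322, 4428 and 3419 CPM and monocyte-like cells 4842, 4435 and 3915 CPM. Plasmacytoid dendritic-like cells held 5113, 5439 and 4378 CPM. The unnamed T cluster led by Hist1h2ao and Hist1h2ap held 2757, 3430 and 3623 CPM, rising where the CD8 T-like class was lower at 20 months. In the monocyte-like and macrophage-like classes the level was lower at each later age, while in CD8 T-like cells it was highest at 12 months. Of the 5 main classes, regulatory T-like cells (1365, 1516 and 1175 CPM) and NK-like cells (1145, 1706 and 1293 CPM) were low. Gamma-delta T-like cells were lower still, at 835, 1268 and 938 CPM, and mature dendritic-like cells, at 864, 1045 and 837 CPM, were within the free-RNA range. At 2000 counts per cell, 98.0%, 99.1% and 98.6% of CD8 T-like cells had Ly6c2.

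Ly6c1, its near-identical neighbour, had the same order of these 5 classes at 4 months: 258, 310 and 253 CPM in CD8 T-like cells, 246, 230 and 178 CPM in macrophage-like cells and 220, 232 and 189 CPM in monocyte-like cells. NK-like cells held 67.6, 107 and 85.3 CPM and regulatory T-like cells 114, 111 and 95.7 CPM. Over 28 clusters Ly6c1 and Ly6c2 had a Pearson's r of 0.96 and a Spearman's rho of 0.93. The ratio of Ly6c2 to Ly6c1 was lowest in fibroblast-like cells (6.96) and highest in plasmacytoid dendritic-like cells (25.2). How far shared 3′ sequence adds to this correlation was not tested.

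Ly6a2, whose start-site window is almost that of Ly6c2 in the lines printed above, had a different distribution. It was highest in monocyte-like cells, at 274, 240 and 252 CPM, and next in CD8 T-like cells, at 143, 133 and 90.6 CPM. Macrophage-like cells, whose Ly6c2 level as a class is near that of monocyte-like cells, had 40.7, 37.8 and 33.0 CPM of Ly6a2. The 2 monocyte-like clusters differed in Ly6c2, with the 3 libraries together. The one led by F13a1 and Hp held 2875 CPM of Ly6c2 and 324 CPM of Ly6a2. The one led by Tgm2 and AA467197 held 5994 and 198 CPM. The Dapl1/Gzmm T cluster, close to the CD8 T-like class in Ly6c2, had 36.8, 25.0 and 18.8 CPM of Ly6a2. The ratio of Ly6c2 to Ly6a2 ran from 8.88 in the monocyte-like cluster led by F13a1 and Hp to 363 in the haemoglobin-led T cluster. It was 41.5 in the CD8 T-like cluster led by Ifitm1 and Cd8b1 and 254 in the Dapl1/Gzmm cluster. The haemoglobin-led cluster held 18.5, 21.2 and 12.7 CPM of Ly6a2, beside 93.0, 69.0 and 60.3 CPM over the whole libraries. How far free RNA sets the Ly6a2 level in these 2 unnamed clusters was not tested.

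Ly6e, a receptor-like member that restricts coronavirus entry and is expressed by many tissues, varied least among the main classes. Macrophage-like cells held 3102, 3080 and 3084 CPM and monocyte-like cells 2745, 2669 and 2627 CPM. Regulatory T-like cells held 2659, 2602 and 2419 CPM, NK-like cells 1851, 1970 and 1844 CPM and CD8 T-like cells 1685, 1925 and 1785 CPM. Mature dendritic-like cells, at 544, 619 and 620 CPM, were within the free-RNA range at each age, which reads as background.

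Ly6i, a close relative of Ly6a, was highest in the macrophage-like class, though not in each of its clusters. Macrophage-like cells held 350, 373 and 296 CPM, which was 56.6%, 64.1% and 64.3% of the Ly6i counts of each library. Monocyte-like cells held 184, 181 and 191 CPM, and the other named classes less: 95.3, 76.5 and 82.6 CPM in regulatory T-like cells, 55.7, 61.9 and 61.1 CPM in CD8 T-like cells and 39.3, 42.0 and 38.7 CPM in NK-like cells. The ratio of Ly6a to Ly6i was lower in most monocyte-like and macrophage-like clusters than in the T and NK clusters. It was 4.74 to 7.57 in the former, outside one macrophage-like cluster led by Pf4 and Cd81, where it was 20.0. In the T and NK clusters it was 24.1 to 40.7, apart from an unnamed one led by Cdk8 (11.1). Dendritic-like clusters ran from 13.2 (mature) to 28.4 (plasmacytoid), into the T and NK range.

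**Figure D2:**
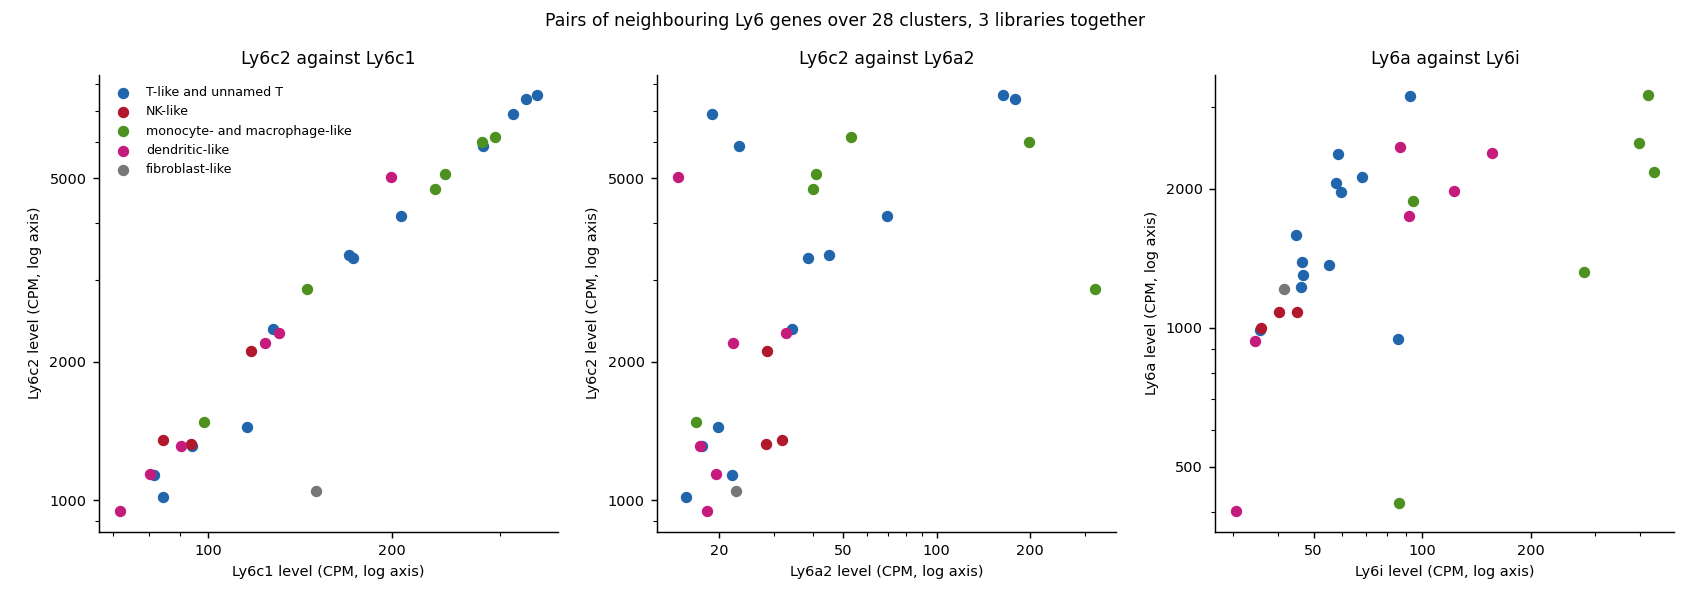
Levels of 3 pairs of neighbouring Ly6 genes (CPM, log axes) over 28 clusters with the 3 libraries together; each point is a cluster, coloured by lineage. Ly6c2 and Ly6c1 lie along one line, Ly6c2 and Ly6a2 do not, and the monocyte- and macrophage-like clusters hold more Ly6i for their Ly6a than T and NK clusters.

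Levels at 12 and 20 months were next set against 4 months in 5 classes (CD8 T-like, regulatory T-like, NK-like, monocyte-like and macrophage-like), with a ratio of at least 1.5-fold at 20 CPM or more used as the mark of size. Of 50 gene-by-class values, 2 were higher and 4 lower by that mark at 12 months, and 3 higher and 3 lower at 20 months. Ifitm1 accounted for 7 of those 12 values and was the only one of the 10 genes to move in both directions. In CD8 T-like cells, 0 of 10 genes were higher and 2 lower at 12 months (2.83% and 0.695% of all genes tested), and 0 higher and 2 lower at 20 months (5.53% and 1.02%). The macrophage-like class had 0 higher and 2 lower at 12 months (2.3% and 0.586%) and 0 higher and 1 lower at 20 months (1.52% and 0.999%). The monocyte-like class had 0 in either direction at 12 months (2.53% higher and 0.789% lower over all genes) and 1 higher and 0 lower at 20 months (1.51% and 0.843%). The NK-like class had 2 of 9 higher and 0 lower at 12 months (2.06% and 0.675%) and 1 higher and 0 lower at 20 months (1.89% and 0.538%). The regulatory T-like class had 0 of 9 in either direction at 12 months (3.07% higher and 2.46% lower over all genes) and 1 higher and 0 lower at 20 months (3.88% and 2.73%). Since the genes were chosen with these contrasts known, nothing is read from those counts. The median log2 ratio of the measured members at 20 months was −0.13 in CD8 T-like cells, −0.25 in macrophage-like, −0.07 in monocyte-like, −0.01 in NK-like and −0.21 in regulatory T-like cells, beside −0.09, −0.04, 0.02, −0.06 and −0.05 over all genes.

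**Figure D3:**
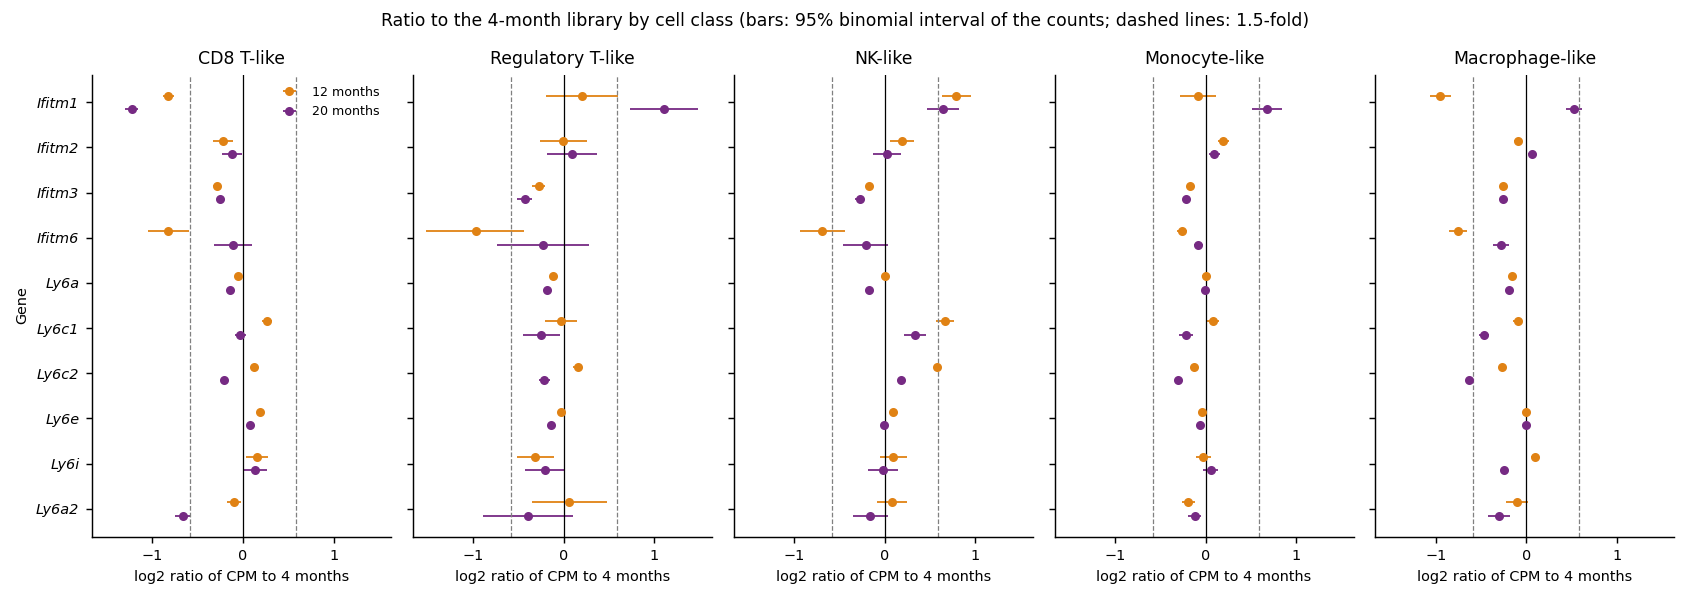
Log2 ratio of each gene's level at 12 and at 20 months to that at 4 months in 5 classes of cells, with 95% counting intervals; dashed lines mark 1.5-fold in either direction. Ifitm1 lies below the lower line in CD8 T-like cells at both ages (−0.82 and −1.23) and above the upper line in regulatory T-like cells at 20 months (1.10), while most other genes lie between the lines; Ifitm6 in regulatory T-like and NK-like cells at 12 months is under 20 CPM and not counted.

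In CD8 T-like cells Ifitm1 was 2.34-fold lower at 20 months than at 4 months, a log2 ratio of −1.23 (−1.30 to −1.16), and at 12 months the log2 ratio was −0.82 (−0.88 to −0.76). Over the 2602 genes used for scaling by the median ratio, the class median at 20 months lay at −0.11 on the log2 scale. The lower level held in each of the 4 CD8 T-like clusters with at least 50 cells per library. In the cluster led by Ifitm1 and Cd8b1, which also holds Fasl, Ifng and Ccl5 among its leading genes, the level was 593, 310 and 319 CPM at 4, 12 and 20 months. In the cluster led by Cxcr6, a tissue-homing chemokine receptor, it was 283, 162 and 159 CPM. The cluster led by Pdcd1, the gene of the PD-1 checkpoint receptor, with Tox and Lag3, genes of the exhausted state, held 84.8, 63.6 and 31.8 CPM. The small cluster led by Eya4 and Dock1 held 109, 94.0 and 42.2 CPM. The log2 ratios at 20 months were −0.83 to −1.41, and at 12 months 3 of the 4 were lower with the Eya4/Dock1 interval spanning 0.

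The make-up of the class moved as well. Cells of the Ifitm1/Cd8b1 cluster, which had the highest level, numbered 1198, 1312 and 572. Without that cluster the CD8 T-like log2 ratio of Ifitm1 was −0.77 at 20 months and −0.56 at 12 months, the latter no longer past 1.5-fold. The share of cells with Ifitm1 was lower at the later ages too: at 2000 counts per cell 16.02%, 10.6% and 9.69% of CD8 T-like cells had Ifitm1, and 25.2%, 20.3% and 20.6% without thinning. The Dapl1/Gzmm T cluster had 4.24%, 3.93% and 4.14% after thinning, with a median depth of 5878, 7281 and 6246 counts against 5007.5, 5667 and 5475 in CD8 T-like cells. The 10 cells with the most Ifitm1 counts held 11.0%, 13.8% and 19.3% of the class total. Macrophage markers in the CD8 T-like class summed to 541, 789 and 1333 CPM at 4, 12 and 20 months (10 of 10 markers above 0), and their part in the result was not tested.

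**Figure D4:**
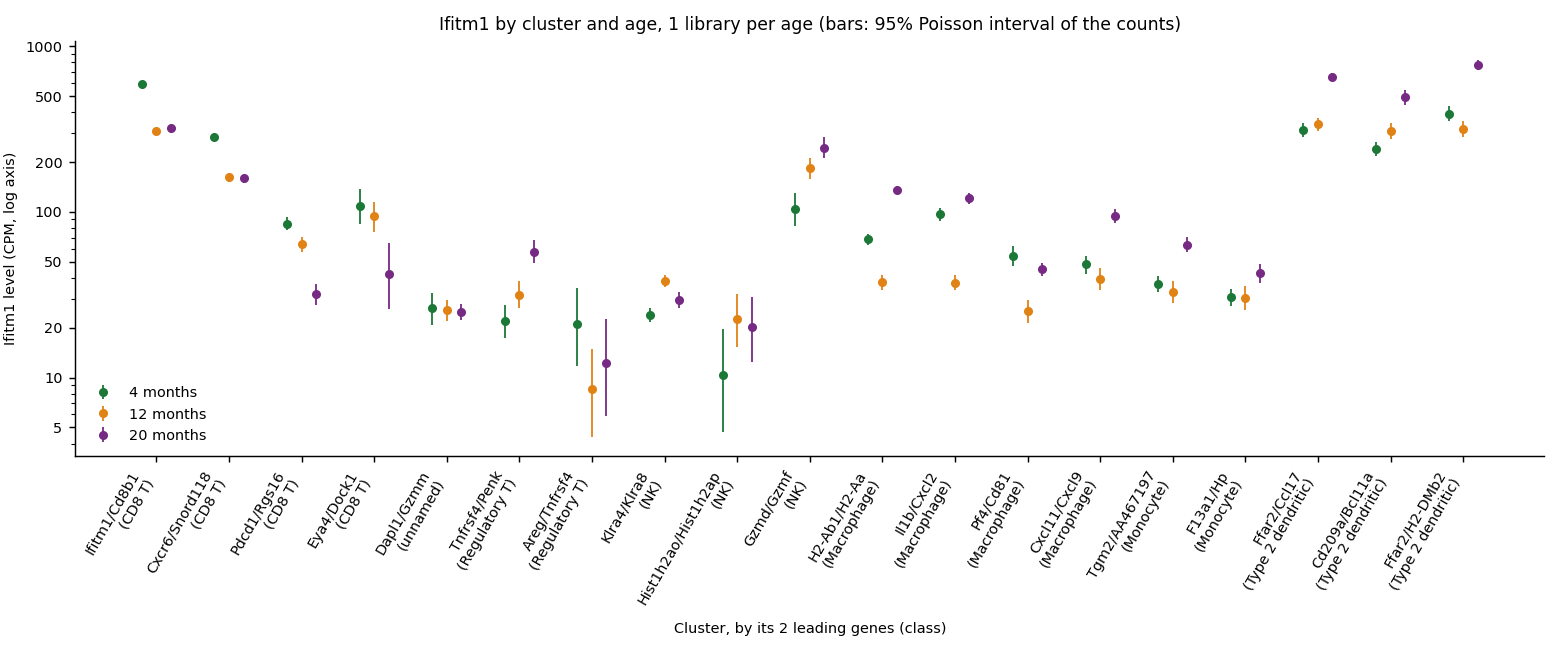
Ifitm1 level (CPM, log axis) at 4, 12 and 20 months in 19 clusters, named by their leading genes with the class in brackets; points are 1 library per age and bars the 95% Poisson interval. All 4 CD8 T-like clusters are lower at 20 than at 4 months, and all 3 type 2 dendritic-like clusters are higher.

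Outside CD8 T-like cells, Ifitm1 at 20 months was higher in 3 of the 4 other main classes past 1.5-fold. In regulatory T-like cells the log2 ratio to 4 months was 1.10 (0.73 to 1.48), but −0.03 with classes set by marker gates on single cells. Macrophage markers in this class summed to 560, 740 and 987 CPM, and their part in the result was not tested. The 4-month level in the class was 21.8 CPM, beside 100 CPM over the whole library. How much of that level is free RNA was not tested. The higher level was seen in the cluster led by Tnfrsf4 and Penk, at 22.0, 31.7 and 57.7 CPM, whereas the cluster led by Areg, a tissue-repair growth factor, had no more than 15, 12 and 10 counts of Ifitm1. The regulatory T-like value rests on few cells: the 10 cells with most Ifitm1 held 20.0%, 34.7% and 59.0% of its counts. Thinned to 2000 counts, 3.82%, 5.57% and 5.97% of these cells had the gene, close to the Dapl1/Gzmm cluster.

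NK-like cells gave Ifitm1 a log2 ratio of 0.79 (0.63 to 0.95) at 12 months, and at 20 months 0.64 (0.46 to 0.82). The 20-month value was past 1.5-fold in 5 of 12 processing alternatives and was −0.06 with marker gates. A small cluster led by Gzmd and Gzmf, granzyme genes of activated killer cells, held 104, 183 and 244 CPM on 63, 96 and 76 cells. The large NK-like cluster led by Klra4 and Klra8, of the Ly49 receptor family, held 23.8, 38.4 and 29.4 CPM. Without the Gzmd/Gzmf cluster the class ratio at 20 months was 0.30, no longer past 1.5-fold, and 0.68 at 12 months. The 10 cells with most Ifitm1 held 23.7%, 32.1% and 42.6% of the NK-like counts. CD8 T markers in the NK-like class summed to 592, 975 and 857 CPM and macrophage markers to 495, 701 and 984 CPM, and their part in the result was not tested.

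In monocyte-like cells Ifitm1 had a log2 ratio of 0.68 (0.51 to 0.85) at 20 months and was level at 12 months. The cluster led by Tgm2 and AA467197, which also shows Slfn4, Chil3 and Arg1, held 36.9, 33.1 and 63.7 CPM, and without it the ratio was 0.48, short of 1.5-fold. Macrophage markers in the monocyte-like class summed to 1503, 1910 and 2371 CPM, and their part in the result was not tested. Macrophage-like cells had a log2 ratio of −0.95 (−1.06 to −0.84) at 12 months and 0.52 (0.44 to 0.61) at 20 months, the latter short of 1.5-fold. At 20 months 3 of the 4 macrophage-like clusters were higher than at 4 months, by log2 ratios up to 1.00 in the cluster led by the MHC class II genes H2-Ab1 and H2-Aa, and the Pf4/Cd81 cluster was lower, at 54.4, 25.2 and 45.1 CPM. In type 2 dendritic-like cells the log2 ratio at 20 months was 0.96 (0.87 to 1.06), and the 3 clusters of that class had the same direction, at 0.98 to 1.06. In that class 1 of the 10 genes, Ifitm1, was higher at 20 months by 1.5-fold and 2, Ly6c2 (−0.62) and Ly6a2 (−0.68), were lower, beside 3.28% and 3.29% of all genes tested. Ly6a2 stood there at only 27.3, 25.0 and 17.1 CPM, while over whole libraries it went from 93.0 CPM at 4 months to 60.3 CPM at 20 months. It was lower at 20 months in 1 of the 3 clusters, and in the other 2 the interval spanned 0. The part of free RNA in the Ly6a2 ratio was not tested. Macrophage markers in this class summed to 757.5, 940.6 and 1322 CPM at 4, 12 and 20 months and monocyte markers to 5067, 4023 and 3894 CPM, and their part in these results was not tested. At 12 months 0 of the 10 genes were higher (3.34%) or lower (1.52%).

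Ly6c2 was the gene that moved most in macrophage-like cells at 20 months, with a log2 ratio of −0.64 (−0.65 to −0.63). Within the 4 clusters the ratios were smaller, −0.28 to −0.42. The Pf4/Cd81 cluster had the lowest Ly6c2, 1626, 1655 and 1338 CPM, and its cells numbered 376, 521 and 1025. Pf4, Cd81, Ms4a7 and C1qc are genes of settled tissue macrophages, while the cluster with the highest Ly6c2, led by the interferon-gamma-induced chemokine genes Cxcl11 and Cxcl9, held 7065, 5944 and 5293 CPM. Without the Pf4/Cd81 cluster the macrophage-like log2 ratio was −0.42, short of 1.5-fold, and it was past 1.5-fold in 9 of 12 processing alternatives. Monocyte-like cells went the same way by less, with Ly6c2 lower in both clusters at 20 months.

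The 6 monocyte-like and macrophage-like clusters also ordered the other genes. From the F13a1/Hp monocyte-like cluster to the Tgm2/AA467197 cluster and on to the macrophage-like clusters, Ifitm6 went from 718, 625 and 696 CPM at 4, 12 and 20 months through 275, 223 and 278 CPM to at most 96.6 CPM. Ly6a2 followed the same order, from 349, 296 and 305 CPM through 198, 188 and 207 CPM to at most 58.4 CPM. Ly6a ran the other way, from 406, 440 and 418 CPM through 1370, 1294 and 1275 CPM to 3336, 3086 and 3087 CPM in the Cxcl11/Cxcl9 cluster. These 3 orders were the same in the 3 libraries. Ly6i was low at both ends, with 93.7, 76.6 and 81.5 CPM in the F13a1/Hp cluster and 78.6, 98.7 and 96.4 CPM in the Pf4/Cd81 cluster. Between them it was 368 to 460 CPM at 4 months in the other 3 macrophage-like clusters. The Tgm2/AA467197 monocyte-like cluster held 279 CPM of Ly6i with the 3 libraries together.

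**Figure D5:**
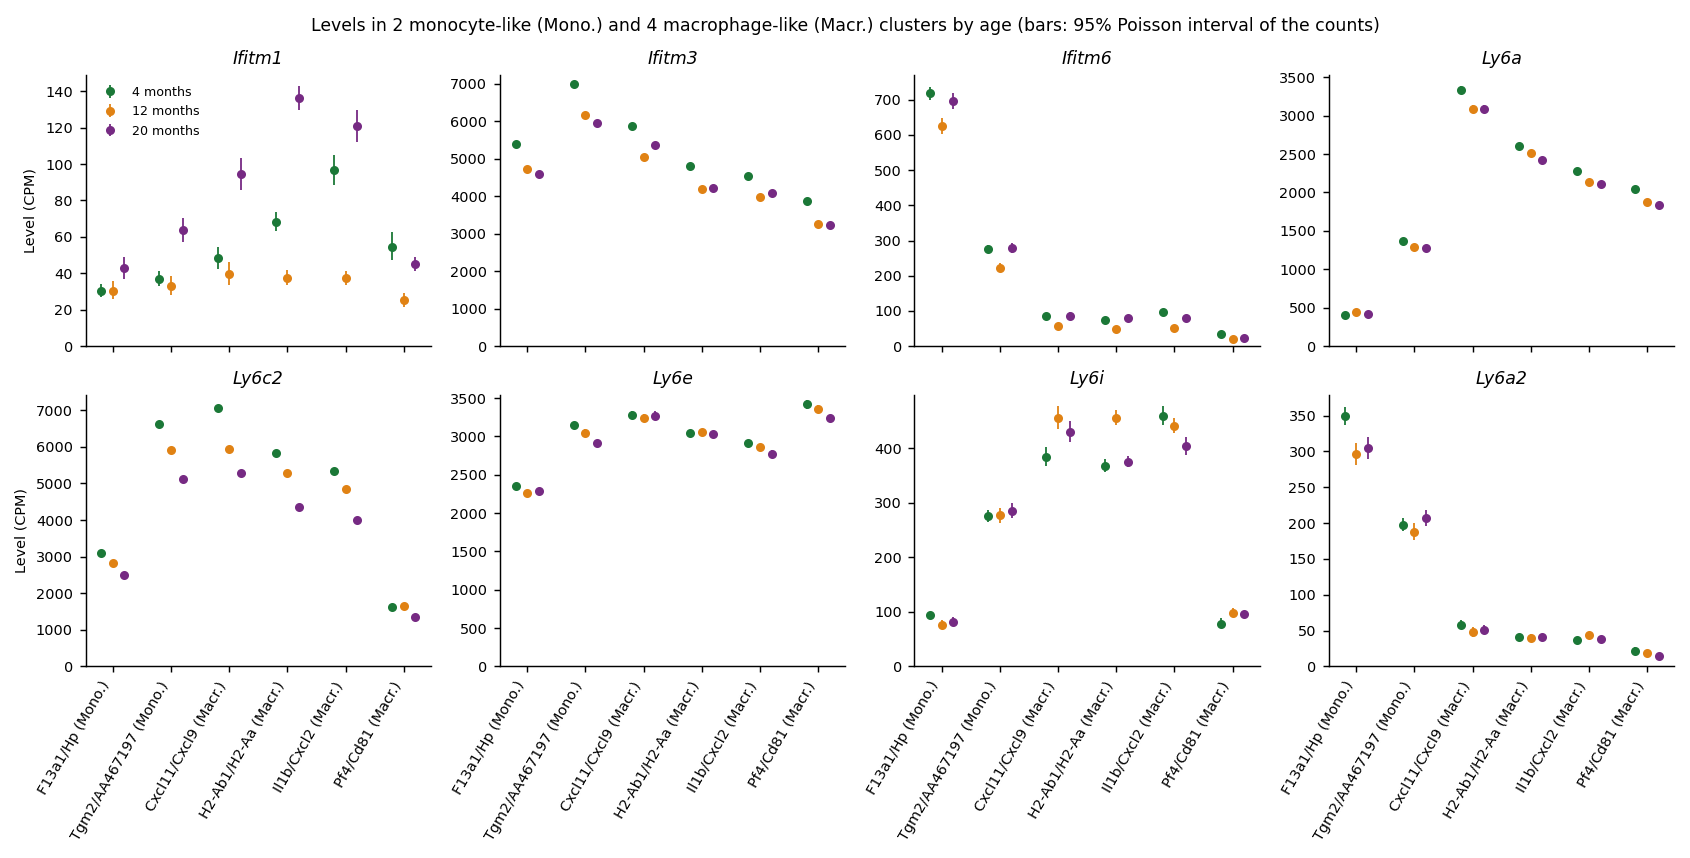
Levels of 8 of the genes (CPM) in 2 monocyte-like and 4 macrophage-like clusters at 4, 12 and 20 months, with 95% Poisson intervals; clusters are named by their leading genes. Ifitm6 and Ly6a2 are highest in the F13a1/Hp monocyte-like cluster, Ly6a and Ly6c2 in the Cxcl11/Cxcl9 macrophage-like cluster, and Ly6c2 is lowest in the Pf4/Cd81 cluster.

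Ly6a2 in CD8 T-like cells was lower at 20 months, with a log2 ratio of −0.66 (−0.75 to −0.57). It was lower in the Ifitm1/Cd8b1 cluster (207, 183 and 117 CPM) and the Cxcr6/Snord118 cluster (194, 179 and 131 CPM), while in the Pdcd1 cluster (49.0, 41.9 and 44.5 CPM) and the Eya4/Dock1 cluster (92.0, 57.6 and 61.2 CPM) the interval of the ratio spanned 0. Without the Ifitm1/Cd8b1 cluster the ratio was −0.33. In the Dapl1/Gzmm cluster Ly6a2 was lower as well, with a log2 ratio of −0.97 (−1.29 to −0.63) at 20 months. In that cluster 2.78% of all genes were higher and 3.93% lower at 20 months (2.36% and 3.74% at 12 months). Its Ly6a2 level went from 36.8 CPM at 4 months to 18.8 CPM at 20 months. Over the whole library Ly6a2 went from 93.0 to 60.3 CPM, and the part of free RNA in the cluster's ratio was not tested. Ly6c1 in NK-like cells had a log2 ratio of 0.66 (0.56 to 0.77) at 12 months, beside 0.58 for Ly6c2. The 2 genes cannot be told apart fully there. CD8 T markers in the NK-like class summed to 592 CPM at 4 months and 975 CPM at 12 months. Their part in these 2 ratios was not tested. Ifitm6 in CD8 T-like cells at 12 months (−0.82, −1.05 to −0.60) was within the free-RNA range. In macrophage-like cells Ifitm6 had a log2 ratio of −0.75 (−0.86 to −0.65) at 12 months, with its monocyte-like level at 416 CPM against 499 CPM at 4 months.

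Ifitm3 was lower in each main class at both later ages by less than 1.5-fold, although the CD8 T-like and NK-like values at 20 months read as background. Within clusters it was lower at 20 months in 4 of 4 CD8 T-like, 4 of 4 macrophage-like, 2 of 2 monocyte-like, 2 of 2 regulatory T-like and 2 of 3 NK-like clusters, with the interval of the other NK-like cluster spanning 0. The log2 ratios reached −0.73 in CD8 T-like and −0.63 in regulatory T-like clusters, past 1.5-fold, and −0.26 in macrophage-like clusters. In the CD8 T-like class the Ifitm3 ratio at 20 months was −0.25, and −0.53 without the Dpf3/Sim1 cluster. Without that cluster Ifitm1 moved from −1.23 to −1.16, Ifitm2 from −0.12 to −0.39 and Ifitm6 from −0.11 to −0.46. Ly6a and Ly6e were the steadiest of the abundant genes: Ly6a in monocyte-like cells ran from 880 to 884 CPM and Ly6e in macrophage-like cells from 3080 to 3102 CPM over the 3 ages.

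Whether genes were found in the same cells was described after thinning to 2000 counts, for 2 pairs chosen after their values were seen. For Ifitm1 and Ifitm2 in CD8 T-like cells, both were found in 4.71%, 3.38% and 2.55% of cells at 4, 12 and 20 months, 2.14, 2.71 and 2.42 times the product of their shares. In macrophage-like cells that ratio for Ifitm1 and Ifitm2 was 1.25, 0.87 and 1.24. Ly6c1 and Ly6a2 were found together in macrophage-like cells 1.49, 1.49 and 1.55 times as often as the product, and in NK-like cells 1.70, 1.56 and 1.93 times. Cells of 1 class still differ in type and in counts, and these ratios have no test.

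Genes whose log levels over 30 points (10 groups of cells in 3 libraries) were most like each member were named by the highest Pearson's r, as a description, since points of 1 library share depth and free RNA. For Ifitm3 they were Ifi207, Phf11d and Ifi205, each with r of 0.99. For Ifitm6 they were Slk (0.98), Krt80 (0.98) and Itpr1 (0.97), and for Ifitm2 the overlapping Gm45717 (0.998), Slc8a1 (0.99) and Rp2 (0.98). For Ifitm1 the closest were Ctnnd2 (0.79), Cdh1 (0.76) and Ppp1r14a (0.75), all highest in type 2 dendritic-like cells, so no gene followed it closely. Ly6a went with Ly6f (0.99), Cdc42se2 (0.92) and AU020206 (0.89), and Ly6i with Lipa (0.97), Chd9 (0.96) and G530011O06Rik (0.96). Ly6e went with Cdk2ap2 (0.94), Arhgap25 (0.93) and Hcls1 (0.92). Ly6c2 had Ms4a6b (0.81), Smim4 (0.80) and Lpxn (0.78), and Ly6c1 had Ms4a6b (0.81), Armc7 (0.77) and Lpxn (0.77). Ly6a2 had Cd177 (0.81), Gsr (0.80) and Vcan (0.79), of which Vcan is a leading gene of the F13a1/Hp monocyte-like cluster.

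A list of 40 other interferon-response genes gave the setting for these families. In CD8 T-like, macrophage-like, monocyte-like and NK-like cells, 0 of its 39 or 40 measured genes were higher and 0 lower by 1.5-fold at 12 or 20 months. Over all genes tested in these classes, 2.06% to 2.83% were higher and 0.586% to 0.789% lower at 12 months. At 20 months those shares were 1.51% to 5.53% and 0.538% to 1.02%. Beside such small shares, nothing is read from counts of 0. The list's median log2 ratio at 20 months was −0.12, −0.21, −0.25 and −0.30 in these 4 classes. The largest decrease in CD8 T-like cells was that of Irf7, the master regulator of type I interferon genes, at −0.37. Ifitm1 in CD8 T-like cells, at −1.23, lay below the lowest value of that list, and Ifitm1 in NK-like and monocyte-like cells had the opposite sign to the list's median. Regulatory T-like cells had 2 of 40 genes lower at 20 months, Cxcl9 and Ifih1, and 1, Mx1, lower at 12 months. Over all genes tested in that class, 2.73% were lower at 20 months and 2.46% at 12 months. Among 13 interferon-signal genes Ifng, the gene of interferon gamma, was lower at 20 months in CD8 T-like cells (469 CPM at 4 months and 255 CPM at 20 months, log2 ratio −0.88) and in NK-like cells (163 and 90.0 CPM, −0.86). Of 33 related Ly6 and Ifitm family genes, 1 to 3 were measured in a class. Plaur, the urokinase receptor and a distant Ly6 relative, was lower at 20 months in macrophage-like (183 and 120 CPM, −0.61), monocyte-like (486 and 315 CPM, −0.63) and NK-like cells (25.8 and 16.7 CPM, −0.63). The NK-like levels lie near the limit of 20 CPM. Plaur was also lower by 1.5-fold in regulatory T-like, type 2 dendritic-like and mature dendritic-like cells. The same held in the Dapl1/Gzmm and haemoglobin-led T clusters, but not in CD8 T-like cells.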

How the data were processed

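The authors deposited 1 filtered matrix of counts per library (genes by cell barcodes, whole numbers), with gene IDs and symbols. STAR 2.7.10a and the build GRCm38 are named in the submitters' processing notes; the counting program, gene annotation, cell calling and handling of molecular identifiers are not given in the sources used here. The 10 genes and all gene lists were chosen with earlier results of these data known.

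From the deposited counts, cells with under 500 counts or over 15% mitochondrial counts were removed (2 cells failed the second limit), then the 6% with the highest doublet score in each library (863, 879 and 881 cells). Scanpy 1.11.5 (Python 3.11.15, numpy 2.4.6, scipy 1.17.1, leidenalg 0.10.2) clustered the 3 libraries together on 2000 variable genes and 30 principal components, with 15 neighbours and resolution 1.0 (0.5 for myeloid cells). The 10 genes, their relatives and 8 genes specific to 1 library were kept out of the clustering, so that the clusters do not rest on the values reported. Clusters were named from 21 marker lists by score (at least 0.4, at least 3 markers detected) and left unnamed where their leading genes went against the name.

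Counts were summed per library and class, scaled to CPM and set against 4 months, with 95% exact Poisson intervals for levels and the matching binomial intervals for ratios. With 1 library per age there is no test between ages and no p-value is given; intervals cover counting error only. Shares of cells were taken after thinning each cell to 2000 counts. Members are the listed symbols; clusters needed 50 cells per library and classes 100. All members were described by class, those past 1.5-fold by cluster, and the 3 genes most like each were named by Pearson's r on log2 of CPM plus 10. The calculation was tested on simulated counts. Of 55401 gene IDs, 54349 (98.1%) were matched to GENCODE M21 for positions; start-site sequences are RefSeq's, GRCm38.p6. Alternatives numbered 12, of which 2 (library-specific genes kept in the clustering, and classes named by marker score alone) were added after seeing the data. No protein sequence was used here.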

Additional observations from a re-analysis of the deposited data

Results flagged for a closer look

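Ifitm1 was the gene whose age ratios pointed both ways in different cells, past 1.5-fold in each. At 12 months its log2 ratio to 4 months was −0.82 in CD8 T-like cells and −0.95 in macrophage-like cells but 0.79 in NK-like cells. At 20 months it was −1.23 in CD8 T-like cells against 0.68 in monocyte-like, 0.64 in NK-like and 1.10 in regulatory T-like cells. The difference between these classes was not tested, since each age is 1 library. Of the 5 main classes, the regulatory T-like one had the largest share of its Ifitm1 counts in its 10 highest cells at 20 months, 59.0%, and the same share for CD8 T-like cells was 19.3%.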

How the results depend on the processing

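The calculation was repeated under 12 alternatives. The log2 ratio of Ifitm1 in CD8 T-like cells stayed past 1.5-fold in 12 of 12, at −1.61 to −0.73 for 12 months and −1.54 to −0.91 for 20 months. Ly6a2 in CD8 T-like cells at 20 months ran from −0.99 to −0.44 (past 1.5-fold in 10), Ly6c2 in macrophage-like cells from −0.92 to −0.41 (past in 9) and Ifitm1 in monocyte-like cells from 0.51 to 1.11 (past in 10). Ifitm1 in NK-like cells at 20 months was past 1.5-fold in 5 of 12. With classes set by marker gates on single cells it was −0.0605 in NK-like and −0.0258 in regulatory T-like cells, so both changed sign. Marker gates gave 1 gene-by-class value higher at 12 months and 1 at 20 months. Cells of at least 5000 counts gave 4 higher at 12 months. At 20 months 6 values were lower with each library clustered separately and 1, Ifitm1 in CD8 T-like cells, with scaling by the median ratio. The share of all genes past 1.5-fold under each alternative is not given here, so nothing is read from these counts. The cause of these changes was not tested.

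No paired analysis was possible because each age has 1 library. The main limit is that missing replication: pooling of mice, sort, library preparation and age cannot be told apart. Classes are rebuilt from clusters, free RNA reaches every class, and low counts (Ifitm1 in regulatory T-like cells, Ifitm6 outside myeloid cells) carry little weight.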

Other observations

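The type 2 dendritic-like class was the one of those described where the list of 40 interferon-response genes held many genes past 1.5-fold: 10 were lower and 0 higher at 20 months (3.29% and 3.28% of all genes tested in that class), with a median log2 ratio of −0.49, and 1, Cxcl9, was lower at 12 months. The 10 were Isg15, Ifit2, Ifit3, Rsad2, Irf7, Usp18, Oasl1, Mx2, Gbp5 and Cxcl10. Cxcl10, a chemokine gene that draws T cells, had 1030 CPM at 4 months and 579 CPM at 20 months (−0.83), Oasl1 211 and 119 CPM (−0.83) and Ifit2 521 and 312 CPM (−0.74). Ifitm3 in the same cells went from 5270 to 3910 CPM, while Ifitm1 went from 330 to 643 CPM. Over the same ages macrophage markers in these cells went from 757.5 to 1322 CPM and monocyte markers from 5067 to 3894 CPM. Their part in these values, and the difference from other classes, was not tested.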
